A study of Ovis aries with 6 samples.

Results

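TAC1 and PRLH, 2 genes that code for neuropeptide precursors, both gave lower signal in the skin of Aohan fine wool sheep than in that of small tail Han sheep. They were read at 3 of the 15008 probes of an Agilent sheep array, TAC1 at A_70_P030231 and A_70_P030232 and PRLH at A_70_P030041, which are all the probes that carry a sheep RefSeq mRNA of these genes. In all, 734 probes carry a RefSeq accession that names a gene, for 476 symbols. The genes were chosen by their measured breed difference in these same 6 arrays, so their values are a description and no test is given for them.

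The skin came from the body side of 3 Aohan fine wool sheep, a breed with fine wool, and 3 small tail Han sheep, a breed with coarse wool, and was compared to look for genes related to fibre diameter. It was full-thickness skin, taken in August at the anagen stage and under local anesthesia. The sheep were aged 12 months, 1 ram and 2 ewes of each breed, with 1 Cy3 array per sheep. The labels do not say which sheep was the ram, and the sheep of a breed shared 1 sire. Each breed was also scanned in a session of its own, so breed, sire family and scan session cannot be told apart.

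Neuropeptides are cut from longer precursor proteins in nerve and endocrine cells, released, and read by receptors on nearby cells. TAC1 codes for the precursor of the tachykinins substance P and neurokinin A, which sensory nerve endings release in skin and which act on vessels and on mast cells. PRLH codes for prolactin-releasing peptide, a peptide of the RFamide family known from the brain, where it acts on appetite and on stress responses. The cell bodies of sensory nerves lie outside the skin, and keratinocytes and immune cells can also make neuropeptides. In whole skin, fewer cells of a type and less RNA per cell cannot be told apart.

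Levels are given as the log2 processed intensity minus the 75th percentile of the same array, so that a level of 0 is the signal of a probe at that percentile. The 75th percentile was an intensity of 1103, 2048 and 1131 on the Aohan arrays and 2309, 1837 and 1747 on the small tail Han arrays. The probes well above background numbered 10774 to 13418 on the Aohan arrays and 11055 to 12965 on the small tail Han arrays. All 3 probes of TAC1 and PRLH were well above background on all 6 arrays, and no spot of any array was saturated.

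At A_70_P030231, TAC1 had levels of -1.35, -2.24 and -1.89 in Aohan sheep 1, 2 and 3, against -0.80, -0.95 and -1.11 in small tail Han sheep 1, 2 and 3. The breeds did not overlap, and the lowest small tail Han sheep lay 0.24 above the highest Aohan sheep. The mean level was -1.83 ± 0.45 in Aohan sheep and -0.96 ± 0.15 in small tail Han sheep (SD, n = 3 each). The difference, Aohan minus small tail Han, was -0.87 on the log2 scale (standard error, SE, 0.27), or 1.83-fold lower in Aohan sheep.

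At A_70_P030232, the second TAC1 probe, the levels were -2.52, -3.16 and -2.90 in the 3 Aohan sheep and -1.12, -1.46 and -1.65 in the 3 small tail Han sheep. The breeds lay further apart here, with 0.87 between the highest Aohan and the lowest small tail Han sheep. The mean level was -2.86 ± 0.32 in Aohan sheep and -1.41 ± 0.27 in small tail Han sheep (SD, n = 3 each), a difference of -1.45 (SE 0.24) or 2.73-fold.

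PRLH had levels of -0.58, -1.06 and -1.00 in the 3 Aohan sheep, against -0.05, -0.06 and 0.45 in the 3 small tail Han sheep. No Aohan sheep reached the level of any small tail Han sheep, and the gap between them was 0.53. The mean level was -0.88 ± 0.26 in Aohan sheep and 0.11 ± 0.29 in small tail Han sheep (SD, n = 3 each), a difference of -1.00 (SE 0.23) or 1.99-fold. Small tail Han sheep 3 had the highest PRLH signal, while at both TAC1 probes it had the lowest signal of its breed.

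**Figure D1:**
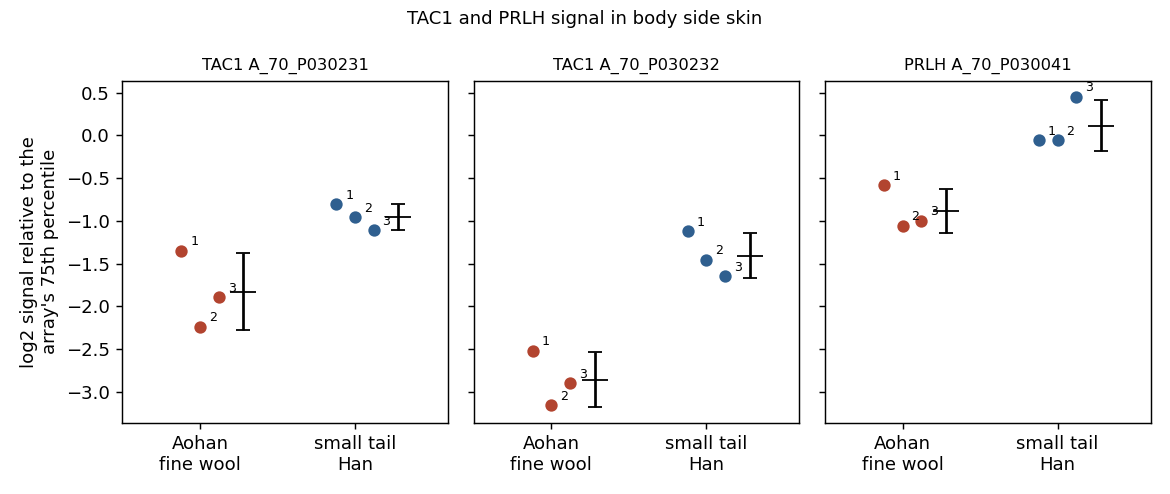
Level (log2 processed intensity minus the 75th percentile of the array) of each TAC1 and PRLH probe in 3 Aohan fine wool sheep (left, red) and 3 small tail Han sheep (right, blue), with sheep numbers beside the points and the mean ± SD as bars. At all 3 probes every Aohan sheep lies below every small tail Han sheep, with gaps of 0.24, 0.87 and 0.53.

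Separation of this kind was common on these arrays. Of 12481 probes tested, 2051 (16.4%) had all 3 Aohan arrays below all 3 small tail Han arrays, and 2220 (17.8%) had them above. A larger fall than that of TAC1 was seen at 881 tested probes (7.06%) for A_70_P030231 and at 330 (2.64%) for A_70_P030232, and a larger fall than that of PRLH at 700 (5.61%). Each of the 3 differences was thus within the range of many other probes, and they add no support to each other since the genes were chosen for them.

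The intensities before any scaling between arrays did not overlap between the breeds either. They come from the same arrays on which the genes were chosen, so they add no support. Aohan arrays 1 and 3 were also dimmer as a whole. Their 75th percentiles were 1103 and 1131, against 1747 to 2309 on the small tail Han arrays. The processed intensity of TAC1 at A_70_P030231 was 434, 434 and 304 in Aohan sheep and 1324, 948 and 810 in small tail Han sheep. At A_70_P030232 it was 192, 229 and 152 in Aohan sheep, against 1061, 669 and 558 in small tail Han sheep. For PRLH it was 735, 983 and 565 in Aohan sheep, against 2225, 1764 and 2394 in small tail Han sheep. The order within the Aohan breed changed with the scaling. Aohan sheep 2 was lowest of the 6 at every probe after scaling, but before it had the highest Aohan intensity of PRLH and of TAC1 at A_70_P030232. Its array had the highest 75th percentile of the Aohan arrays.

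The spot signal stood clear of the local background everywhere, but less so in Aohan sheep. The ratio of spot signal to local background at A_70_P030232 was 5.57, 6.25 and 4.71 in Aohan sheep and 19.7, 11.0 and 12.4 in small tail Han sheep. The ratio for PRLH was 12.9, 22.2 and 10.8 in Aohan sheep and 44.0, 34.4 and 45.4 in small tail Han sheep. With a normexp background correction, a model of spot signal over local background, the TAC1 difference at A_70_P030231 was -0.63 and the breeds overlapped there, since Aohan sheep 1 had a level of -0.92, and small tail Han sheep 2 and 3 had levels of -0.88 and -1.02. TAC1 at A_70_P030232 (-1.12) and PRLH (-1.12) had no overlap under that correction.

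The TAC1 probe A_70_P030231 was printed at 5 places on each array, which gives an error within the array. On Aohan arrays 1, 2 and 3 and small tail Han array 1, the scanner software marked the same 1 of these spots as an outlier. That spot was left out there, so the level is a mean of 4 spots on those arrays and of 5 spots on the other two. The intensities of the spots used had a coefficient of variation of 10.1%, 6.06% and 5.29% on the Aohan arrays and 4.94%, 1.90% and 1.76% on the small tail Han arrays. Before scaling between arrays, the brightest used spot of any Aohan array was at 488 and the dimmest of any small tail Han array at 786. After scaling the used spots of the breeds nearly met. The highest Aohan spot was then at -1.18 (Aohan array 1) and the lowest small tail Han spot at -1.15 (small tail Han array 3). The marked spot had an unscaled intensity of 279 on Aohan array 1, below the other spots of that array. It had 438, 324 and 1482 on Aohan arrays 2 and 3 and small tail Han array 1, close to the others. With the marked spots kept, the difference was -0.94. PRLH and TAC1 at A_70_P030232 had 1 spot each, so they have no such error.

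**Figure D2:**
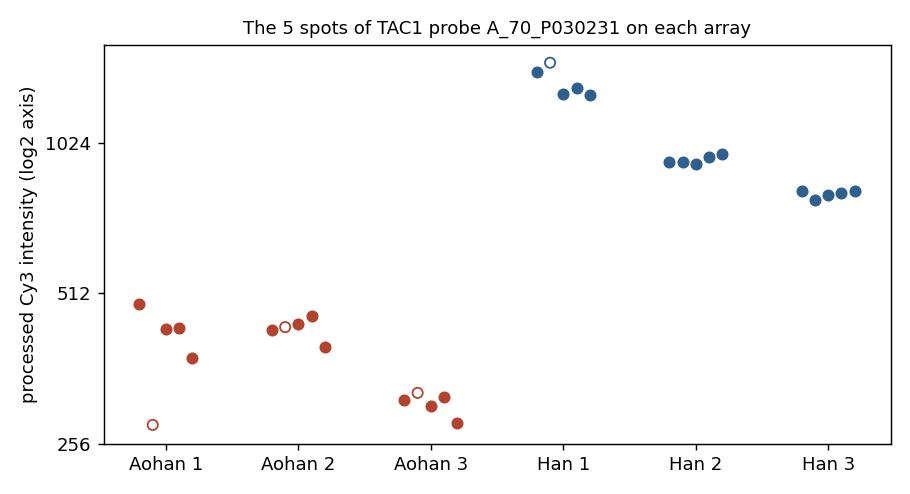
Processed Cy3 intensity (log2 axis, before scaling between arrays) of the 5 spots of TAC1 probe A_70_P030231 on each Aohan array (left, red) and each small tail Han array (right, blue), with open circles for spots marked as outliers and left out. The used spots reach at most 488 on the Aohan arrays and start at 786 on the small tail Han arrays. Aohan arrays 1 and 3 were dimmer as a whole than the small tail Han arrays.

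The 2 TAC1 probes carry the same mRNA accession, and they did not give the same breed difference. The level at A_70_P030231 minus that at A_70_P030232 was 1.17, 0.92 and 1.00 in the 3 Aohan sheep and 0.32, 0.50 and 0.54 in the 3 small tail Han sheep. The mean of this gap was 1.03 ± 0.13 in Aohan sheep and 0.45 ± 0.12 in small tail Han sheep (SD, n = 3 each), so the breed difference of one probe was larger than that of the other by 0.58 on the log2 scale. It was 0.48 with the normexp correction and 0.57 to 0.63 with the other values tried, without overlap between the breeds in any of them. Probes of other genes also differed, with changes of 0.23 and -1.13 for NPY, -0.30 and 0.37 for INSL3 and -0.68 and -0.09 for TYR. Others were close, with 0.08 and 0.06 for KRT35 and 1.11 and 1.05 for CD3E. How common such a gap is was not analysed. RefSeq lists 5 transcripts of sheep TAC1 and 1 of PRLH. Where the probes lie on those transcripts was not analysed here.

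The processed intensity includes, on some arrays, a factor that corrects for the place of a spot on the slide. The software applied it on all arrays but small tail Han arrays 2 and 3. For PRLH the factor was 1.50, 0.973 and 1.22 on the Aohan arrays and 1.09 on small tail Han array 1, so it raised the signal of Aohan sheep 1 and 3. Without it, PRLH had levels of -1.46, -1.06 and -1.42 in Aohan sheep, against -0.27, -0.36 and 0.32 in small tail Han sheep, and the difference was -1.21 in place of -1.00. For TAC1 the factor lay below 1 on the corrected arrays, and without it the difference was -0.73 at A_70_P030231 and -1.30 at A_70_P030232. The breeds did not overlap at any of the 3 probes. Aohan sheep 2 then had the highest PRLH level of its breed, not the lowest. The same held with normexp, where PRLH was at -0.99, -0.94 and -1.19 in the Aohan sheep.

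**Figure D3:**
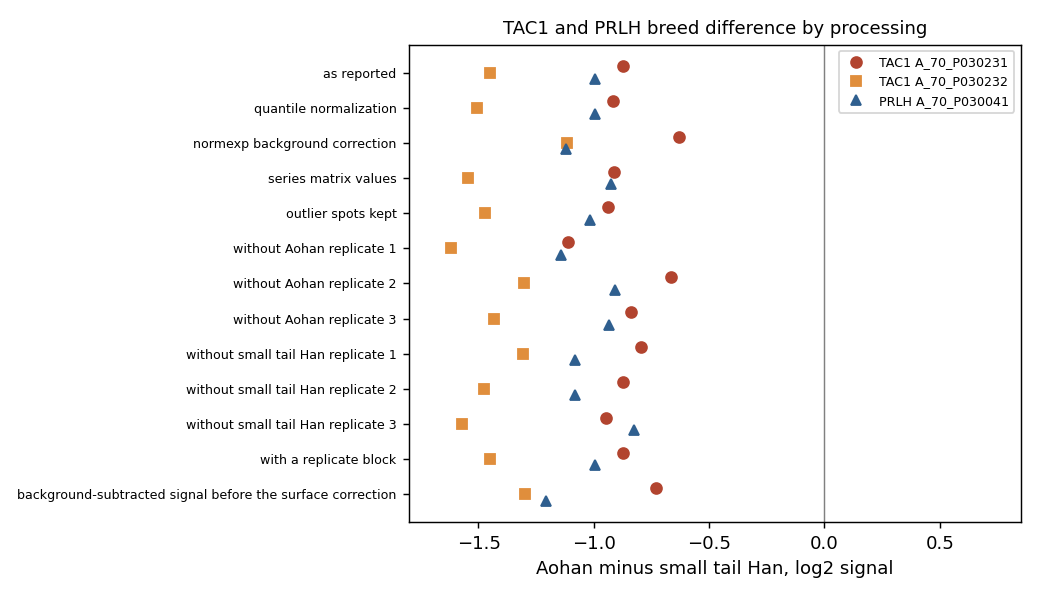
Difference in level (Aohan minus small tail Han, log2) of each TAC1 and PRLH probe as reported and under each other processing or with 1 sheep left out. All points lie below 0, from -1.62 to -0.63, which had to be so with 1 sheep left out, since the breeds did not overlap.

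Other genes of peptide signalling were taken from fixed lists and tested with limma over all 12481 probes, of which 945 (7.57%) were higher and 948 (7.6%) were lower in Aohan sheep at a Benjamini-Hochberg adjusted p under 0.05. Of 67 neuropeptide and peptide hormone precursors listed, 14 genes were on the array, and 11 were tested beside TAC1 and PRLH. None of the 11 was higher, 2 were lower and 9 did not pass, with 1 probe taken per gene. Their median change was -0.04, against 0.02 over all tested probes. POMC and OXT were the 2 that passed.

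POMC codes for the precursor of melanocyte-stimulating hormone, adrenocorticotropic hormone and beta-endorphin. At A_70_P039552 its levels were -3.67, -2.82 and -3.13 in the 3 Aohan sheep and -1.72, -1.70 and -1.71 in the 3 small tail Han sheep. It fell by 1.50 on the log2 scale (SE 0.23, limma adjusted p = 0.00354), without overlap. Its other probe, A_70_P039551, also fell, by 1.01 (SE 0.17, limma adjusted p = 0.00516). Within the Aohan breed, POMC at A_70_P039552 was highest in sheep 2, which had the lowest TAC1 levels. At A_70_P039551 the Aohan levels were -3.04, -3.05 and -3.24, so sheep 2 was not the highest there. The PRLH level of sheep 2 was the lowest as reported, but the highest of its breed with normexp and before the surface correction.

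OXT codes for the precursor of oxytocin. At A_70_P039697 its levels were -0.43, -0.49 and -0.50 in the 3 Aohan sheep and 0.18, 0.51 and 0.45 in the 3 small tail Han sheep. This was a fall of 0.86 on the log2 scale (SE 0.15, limma adjusted p = 0.00634), without overlap. At its other probe, A_70_P039696, the change was -0.43 and did not pass (limma adjusted p = 0.186).

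The other 9 precursors spread to both sides of 0. EDN1, which codes for the vessel-constricting peptide endothelin 1, had the highest change of them (0.63, limma adjusted p = 0.095). SST, the precursor of somatostatin, stood at 0.47 and NPVF, the precursor of RFamide-related peptides and so of the peptide family of PRLH, at 0.06. Both were dim, with mean levels of -5.06 and -4.97 in Aohan sheep and -5.53 and -5.03 in small tail Han sheep. Each was well above background on only 2 small tail Han arrays. ADCYAP1, the precursor of a peptide of sensory and autonomic nerves, changed by -0.60 (limma adjusted p = 0.176), MLN (motilin) by -0.39 and INSL3 by -0.30, where INSL3 gave 0.37 at its other probe (limma adjusted p = 0.214). GRP (gastrin-releasing peptide, a transmitter of itch in the mouse spinal cord) was at -0.03 and NPPC (C-type natriuretic peptide) at -0.04. NPPC was also dim, with mean levels of -5.34 in Aohan sheep and -5.30 in small tail Han sheep. NPY, the precursor of neuropeptide Y of sympathetic nerves, had 2 probes that differed in sign, 0.23 (limma adjusted p = 0.584) and -1.13 (limma adjusted p = 0.102).

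**Figure D4:**
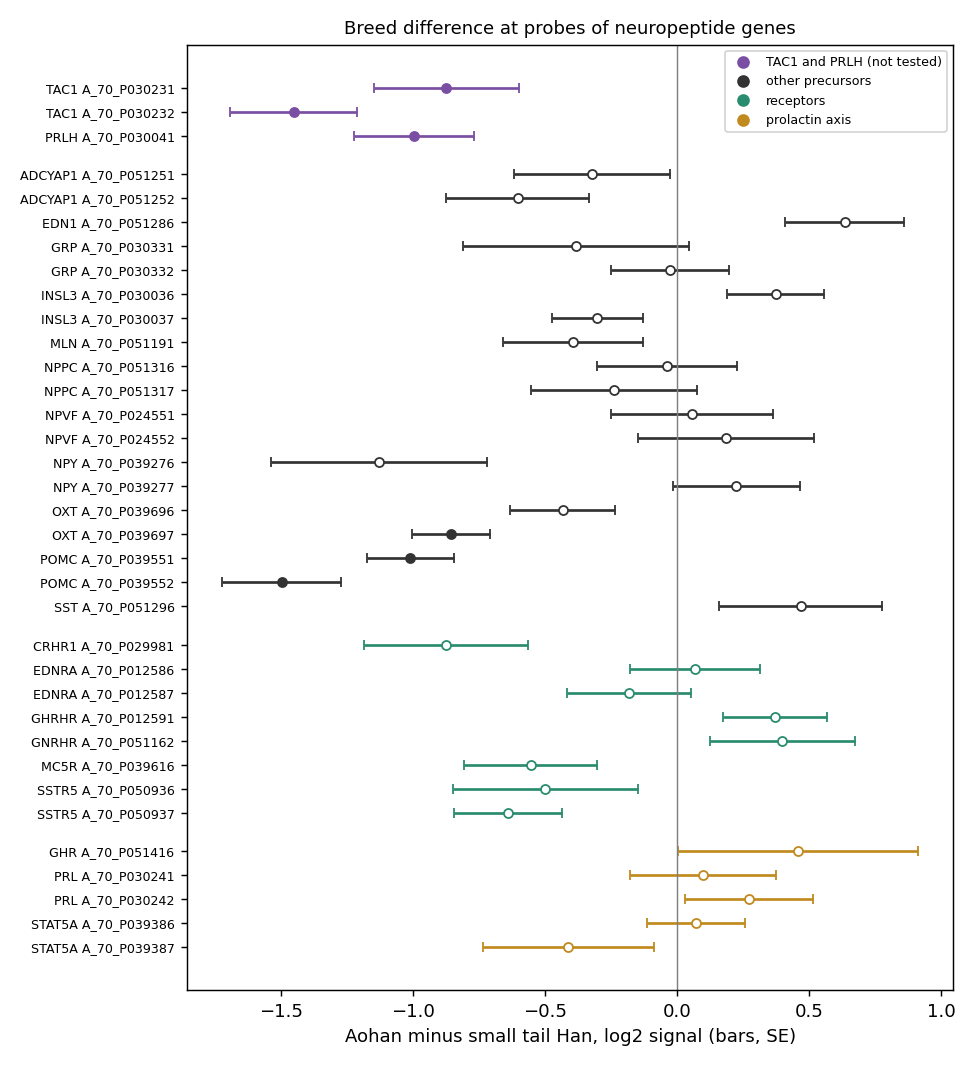
Change (Aohan minus small tail Han, log2, with SE bars) at each probe of TAC1 and PRLH (purple, not tested) and at each tested probe of other peptide precursors, peptide receptors and the prolactin axis. The bars of TAC1 and PRLH are the SE of the difference of means, and those of the other genes are the limma SE, so they are not alike. Filled points of the 3 lists passed at an adjusted p under 0.05, which were both POMC probes and 1 of the 2 OXT probes, and open points did not.

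The receptors for substance P, neurokinin A and prolactin-releasing peptide have no probe named on the array, so the receiving side of TAC1 and PRLH was not analysed here. Of 52 neuropeptide receptors listed, 10 genes were on the array and 6 were tested, of which none passed in either direction and 4 were below 0, with a median change of -0.37. The lowest were CRHR1, a receptor of corticotropin-releasing hormone (-0.87, limma adjusted p = 0.0973), SSTR5, a somatostatin receptor (-0.64, limma adjusted p = 0.0682), and MC5R, a melanocortin receptor of sebaceous glands (-0.55, limma adjusted p = 0.184). EDNRA, a receptor of endothelin 1, was at -0.18 (0.07 at its other probe), GHRHR at 0.37 and GNRHR at 0.40. GNRHR was dim, with mean levels of -4.94 in Aohan sheep and -5.34 in small tail Han sheep.

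PRLH is named for the release of prolactin. Of the prolactin and growth hormone axis, 4 of the 11 genes listed were on the array and 3 were tested, and none passed. PRL, which codes for prolactin itself, changed by 0.27, the growth hormone receptor GHR by 0.46 and the signal transducer STAT5A by 0.07, where STAT5A gave -0.41 at its other probe. Of 15 genes that process or break down peptides, 1 was on the array and it was not tested.

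The skin label was checked against marker genes. The 6 tested genes of keratinocytes and the wool follicle had a summed level of 9.51 to 10.3 in Aohan sheep and 9.65 to 10.1 in small tail Han sheep, far above the 75th percentile in both, and 1 of the 6 rose (LOC443313, by 5.28, limma adjusted p = 2.5e-05). None of the 19 genes listed for peripheral nerve and Schwann cells is named on the array, so the nerve content of the samples was not analysed here. Markers of mast cells, which tachykinins act on, had a summed level of 0.47 to 0.71 in Aohan sheep and -0.08 to 0.57 in small tail Han sheep, and 1 of 3 tested genes rose, the tryptase TPSB2 (0.75, limma adjusted p = 0.0334), at 1 of its 2 probes. TPSB2 did not pass without Aohan sheep 1, 2 or 3 or small tail Han sheep 2 (limma adjusted p = 0.0542 to 0.141). No gene of the melanocyte list (TYR, -0.68), the skeletal muscle list (TNNC2, -0.95, and MB, 0.25) or the blood list (HBB, -0.83) passed at the probe that stood for it, while the other TNNC2 probe fell by 1.37 (limma adjusted p = 0.0219). The other TYR probe was at -0.09 (limma adjusted p = 0.871). At the probes that stood for them, TYR, TNNC2 and HBB lay on the same side as TAC1 and PRLH, as did 48.0% of all tested probes. Their calls stayed as not passed in 11 of 17 alternatives for TYR, 13 of 16 for TNNC2 and 15 of 17 for HBB. Each of these probes passed as lower under some other processing. TYR and TNNC2 did so with quantile normalization (limma adjusted p = 0.0379 and 0.0368) and with the series matrix values (0.0371 and 0.0356), and HBB with normexp (0.00573). HBB also passed without Aohan sheep 3 (limma adjusted p = 0.0224) and TYR without small tail Han sheep 1 (limma adjusted p = 0.0485).

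Markers of T cells moved with the breed in the direction opposite to TAC1 and PRLH. Of 11 genes listed for T and B cells, 3 were on the array, and CD4 was well above background on none of the Aohan arrays. Both tested genes rose, CD3D by 0.92 (limma adjusted p = 0.0362) and CD3E by 1.11 (limma adjusted p = 0.0135). Their summed level was 2.67 to 2.96 in Aohan sheep and 1.33 to 2.24 in small tail Han sheep. The other CD3D probe did not pass (0.73, limma adjusted p = 0.088), while the other CD3E probe did (1.05, limma adjusted p = 0.0104). CD3D did not pass without Aohan sheep 1, 2 or 3 or small tail Han sheep 1 or 2 (limma adjusted p = 0.0606 to 0.118), and CD3E did not without small tail Han sheep 2 (limma adjusted p = 0.0633). CD3E also did not pass before the surface correction (limma adjusted p = 0.0692). The part of these cell types in the TAC1 and PRLH values was not tested.

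To show which genes moved most like TAC1 and PRLH from sheep to sheep, each profile was centred on its own mean over the 6 arrays, and 608 tested probes with a gene name were ranked by the root mean square distance in log2 units. The nearest to TAC1 at A_70_P030231 was ALDH1A1, an enzyme that makes retinoic acid, at 0.153. Its levels were 4.22, 3.30 and 4.03 in Aohan sheep and 4.69, 4.78 and 4.69 in small tail Han sheep, so it also was lowest in Aohan sheep 2. That sheep was the lowest of its breed at KRT27, PRL and GRP too, which did not pass, but not at TPSB2 or POMC. A dip there was thus not particular to these profiles. After ALDH1A1 came the surfactant protein gene SFTPA1 (0.182), the cortisol-converting enzymes HSD11B2 (0.198) and HSD11B1 (0.203), and LOC443344 (0.217).

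For TAC1 at A_70_P030232 the nearest was GKN1 (gastrokine 1), with distances of 0.235 and 0.297 at its 2 probes. CD1D, which presents lipid antigens, followed at 0.290, and HSD11B1 and LOC100125357, an intelectin with the older symbol ITLN2, at 0.300 each. For PRLH the nearest was this same intelectin, at 0.164. The galectin LGALS15 (0.178), SFTPA1 (0.179), GKN1 (0.183) and AHSG (fetuin A, 0.186) came next. Every one of these neighbours was lower in Aohan sheep, by 0.75 to 1.36 in log2 level, as a like profile requires.

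TAC1 and PRLH were not each other's nearest neighbours. PRLH lay 0.286 from TAC1 at A_70_P030231, where 20 other named probes lay nearer, and 0.385 from A_70_P030232. The 2 TAC1 probes lay 0.306 apart, with 26 named probes nearer to A_70_P030231 than the other probe of the same gene, and 5 nearer to A_70_P030232. The lists of neighbours changed with the processing. With the normexp correction, 1 of the 5 neighbours of A_70_P030231, 3 of those of A_70_P030232 and 1 of those of PRLH remained, and before the surface correction 2, 4 and 1 did. With quantile normalization 4, 4 and 5 remained, and with the series matrix values 5, 4 and 3.

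**Figure D5:**
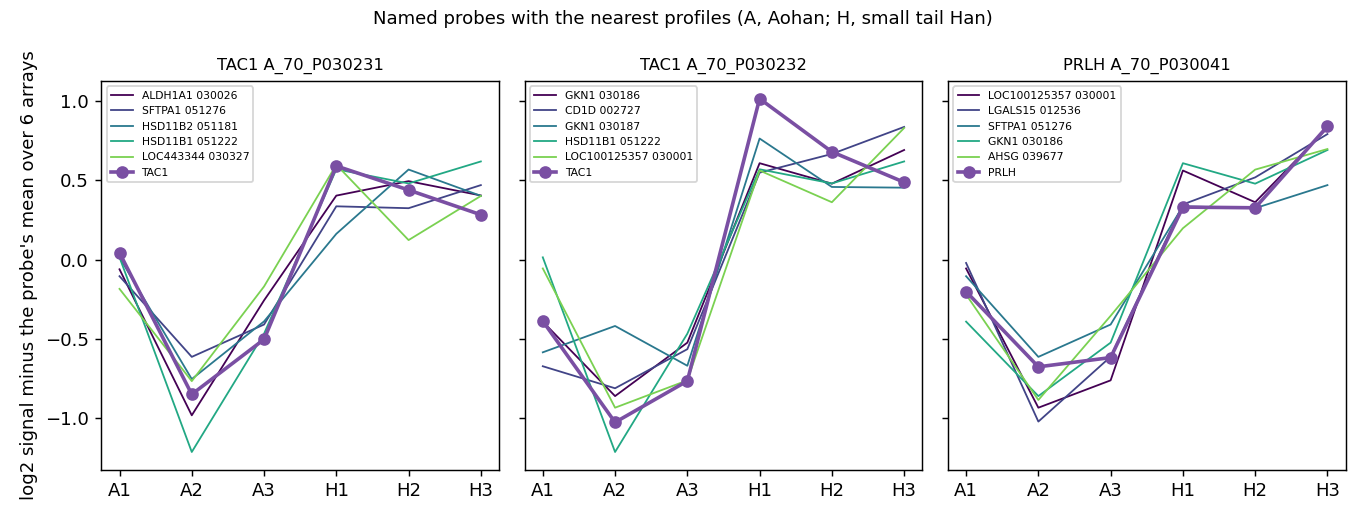
Log2 signal of each TAC1 and PRLH probe (thick purple) and of the 5 named probes nearest to it (thin lines, gene and end of probe name), each minus its own mean over the 6 arrays, in Aohan sheep (A1 to A3) and then small tail Han sheep (H1 to H3). The thin lines follow the purple line at root mean square distances of 0.153 to 0.300, and most dip at Aohan sheep 2. Other genes without a breed difference that passed, such as KRT27 and PRL, were also lowest of the Aohan sheep there.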

How the data were processed

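Total RNA of 6 body side skin samples was labelled with Cy3 and hybridised to Agilent sheep arrays, 1 array per sheep. The deposited scanner files hold background-subtracted intensities that the authors obtained with Agilent Feature Extraction, not normalized between arrays. The version is 10.5.1.1 per the file headers, while the published methods name another one. The authors' series matrix gives the same arrays as log2 values after a normalization whose method is not given in the sources used here. Control spots and outlier spots were dropped, spots of a probe were averaged as log2 values, and the 75th percentile of the non-control probes of the same array was taken off. A probe had to be well above background on 3 or more arrays, with 2 or more values in each breed, and was then tested with limma 3.58.1 in R 4.3.3 (intensity trend, two-sided, Benjamini-Hochberg), after checks on simulated data. Sex could not be modelled. Gene names came from RefSeq mRNA accessions (assembly ARS-UI_Ramb_v3.0), for 734 of 758 probes with one. A gene of a list was read at its brightest tested probe. The genes named are TAC1, PRLH, tested genes of the peptide lists, up to 3 genes of smallest p of other lists and the 5 nearest profiles. Members and lists were chosen with earlier results of these data known. The number of arrays limits the precision.

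The alternatives were quantile normalization, normexp (offset 50, on median spot signals, as the files hold no means), the series matrix values, outlier spots kept, other filters, each array left out, the replicate number as a block, no intensity trend, and the methods' t-test. The signal before the surface correction was added after seeing the data. Figures were drawn with matplotlib 3.10.9.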

Additional observations from a re-analysis of the deposited data

How the results depend on the processing

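The TAC1 and PRLH differences stayed below 0 under all 12 alternatives run on them. With 1 sheep left out they ranged from -1.11 to -0.67 for TAC1 at A_70_P030231, from -1.62 to -1.30 for TAC1 at A_70_P030232 and from -1.14 to -0.83 for PRLH. One value moved by more than the spread between sheep, TAC1 at A_70_P030232 with normexp (-1.12 in place of -1.45). At A_70_P030231 normexp gave -0.63 in place of -0.87, and the breeds overlapped. The spot signal of A_70_P030232 was 4.71 to 6.25 times the local background in Aohan sheep.

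Over all probes, 945 were higher and 948 lower. With 1 sheep left out, 348 to 1230 were higher and 441 to 1018 lower, with 348 and 441 without small tail Han sheep 2, 463 and 481 without small tail Han sheep 3, and 434 and 629 without Aohan sheep 3. The methods' t-test gave 321 higher and 391 lower with Benjamini-Hochberg adjustment and 1686 and 1548 at an unadjusted p of 0.05. Same-numbered sheep did not deviate together (r = -0.22, -0.37 and 0.28 across 12410 probes, which are not independent), so the numbers are only names. With the replicate number as a block, 544 probes were higher, the TAC1 and PRLH differences were the same by construction, and the counts of the peptide lists did not change.

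Of the precursors, 1 was higher without small tail Han sheep 1 (EDN1, limma adjusted p = 0.0155; 0 to 1 over single sheep left out), and 1 rather than 2 was lower with the adjusted t-test, where POMC missed the threshold (adjusted p = 0.0557). OXT passed throughout at A_70_P039697. Of the receptors, 0 to 1 was lower with 1 sheep left out, with SSTR5 passing without Aohan sheep 2 or small tail Han sheep 1, and 2 were lower with the unadjusted t-test. At an unadjusted p of 0.05, 3675 probes passed limma. Some genes that did not pass changed sign. With normexp the change was 0.0013 for INSL3, -0.13 for NPVF and 0.054 for GRP. Before the surface correction it was 0.20 for NPPC and 0.051 for GRP. KRT27 was at 0.040 with quantile normalization and at 0.044 with the series matrix values. With 1 sheep left out, the change ranged from -0.12 to 0.25 for NPVF, from -0.20 to 0.19 for GRP, from -0.36 to 0.030 for EDNRA, from -0.071 to 0.89 for GHR, from -0.027 to 0.18 for STAT5A, from -0.26 to 0.20 for KRT27 and from -0.064 to 0.41 for FCER1A. Markers of other cells changed calls too. TPSB2 did not pass with normexp (adjusted p = 0.472), before the surface correction (0.491), with the block (0.0839), with no intensity trend (0.0618) or with the adjusted t-test (0.132). CD3D did not with the block (adjusted p = 0.0601), with no intensity trend (0.0653) or with the adjusted t-test (0.171), nor CD3E with the adjusted t-test (0.107). TYR passed as lower with outlier spots kept (limma adjusted p = 0.0466) and with the filter on all 6 arrays (limma adjusted p = 0.0469). TYR and TNNC2 were also among the probes lower by the unadjusted t-test. The causes were not tested.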
